A study of Rattus norvegicus with 8 samples.

Results

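Glucuronidation couples UDP-glucuronic acid to bilirubin, steroids, phenols and drugs, and liver is its main site in the body. The reaction is carried out by UDP-glucuronosyltransferases (UGTs) of the endoplasmic reticulum, and its co-substrate is made in the cytosol by UDP-glucose dehydrogenase (Ugdh). The UGT1A enzymes arise from a single locus with a row of alternative first exons, each with its own promoter. Each first exon is spliced to a shared set of 3′ exons. The UGT2B enzymes, in contrast, come from separate neighbouring genes. In rat liver, Ugt1a6 and Ugt1a7 are classical targets of the aryl hydrocarbon receptor (AhR), the transcription factor that binds dioxins, and Ugt2b1 is inducible by phenobarbital-type compounds, which act through the constitutive androstane receptor (CAR).

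The genes described are 8 listed names of glucuronidation genes, namely Ugt1a1, Ugt1a6, Ugt1a7c, Ugt2a3, Ugt2b1, Ugt2b17, Ugt2b35 and Ugdh, and all of their probes on an Agilent rat array were taken. Probes carried accessions and no gene names, so they were named through a RefSeq gene table (GRCr8). That gave 9 probes of 7 RefSeq genes, out of 30367 probes and 15168 named genes on the array. Ugt1a1 and Ugt1a7c had 0 probes under their own accessions. The listed name Ugt2b17 corresponds to the gene that the table calls Ugt2b15, with Ugt2b17 among its synonyms. The name is also a synonym of Ugt2b1. Ugt2b was taken as an older name of Ugt2b1, but the table holds it as a gene of its own, and its 2 probes are given under the name Ugt2b.

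Livers came from male Sprague-Dawley rats aged 21 days that had stayed with their birth mothers. Dams of the 0.5MAhR group received, through gestation and nursing, a mixture of methyl mercury, organochlorine pesticides and polychlorinated biphenyls (0.5 mg/kg/day), to which AhR agonists (non-ortho polychlorinated biphenyls, chlorinated dibenzodioxins and dibenzofurans) were added. The dose then amounted to 6.3 ng/kg/day of dioxin equivalents. Dams of the Control group received the corn oil vehicle alone. The pups were thus exposed through their mothers, and the agents were given together, so that effects of single compounds cannot be told apart. Each array held RNA pooled from 2 pups, with 4 arrays (8 pups) in each group. The sample was labelled with Cy5 and a common reference RNA of 14 rat cell lines with Cy3. The litters of the pups are not given in the sources used, so that p-values cover the variation among pools alone.

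The scanner software marked 42.9% to 49.2% of the spots of an array as well above background in Cy5, and none as saturated. All 8 hepatocyte markers examined were well above background on every array and had lower means in 0.5MAhR livers, with a median difference of -0.11 on the log2 scale. All 6 Kupffer cell markers had higher means, with a median of 0.14. Of 5 stellate markers 4 were higher and 1 lower (median 0.11), and of 4 endothelial markers 2 were higher and 2 lower. The stellate marker Des, higher by 0.19, was well above background on 3 0.5MAhR and 2 Control arrays. It thus entered these counts only through the 0.5MAhR arrays. Among genes of liver zones, 4 periportal genes were lower and 1 higher, and 3 pericentral genes were higher and 1 lower. Over all probes tested below, 46.9% had a difference above 0. No gene of these lists passed the test used below. The part of these shifts in the results was not tested. The arrays lay on 1 slide in 2 columns, as read from the position suffix of each scan, with 2 arrays of each group in each column. The log ratio of 57.0% of the 11407 tested probes differed between the columns at an adjusted p under 0.05 in limma, so slide column was fitted throughout. Transcripts of exocrine pancreas stood out on 2 arrays. The summed Cy5 signal of Prss1, Cpa1 and Cela1 above background was 760 on 0.5MAhR replicate 1 and 2818 on 0.5MAhR replicate 4. It lay at 5.8 and 28.2 on the other 0.5MAhR arrays, against values up to 47.2 on the Control arrays. The part of this in the results was not tested beyond leaving both arrays out, which is given beside them. In whole liver, fewer cells of a type and less RNA per cell cannot be told apart.

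Of the 9 probes, 7 could be tested, for which a group had to hold at least 3 arrays with a Cy5 signal well above background. All 7 had a higher mean log2 ratio in 0.5MAhR than in Control livers, by 0.14 to 0.70, and the groups overlapped at each of them (0.798% of all tested probes were higher and 0.491% lower without overlap). A difference above 0 was found for 46.9% of all tested probes. None of the 7 passed an adjusted p of 0.05 in limma with Benjamini-Hochberg adjustment over all tested probes, where 0.0789% of all tested probes did (0.00877% without slide column in the fit). At an unadjusted p under 0.05, 4 of the 7 were higher and 0 lower, where 3.52% of all tested probes were higher and 2.86% lower. That count of 4 depended on the fit. It was 1 without slide column, where 173 of the 11407 tested probes had such a p in either direction, and 0 with slide row as the block, where 86 did. It was 2 with the scanner software's ratios (914 of all) and 6 in Cy5 alone (819 of all). Without the 2 arrays that carried pancreatic transcripts, 0 of 7 passed and 3 had an unadjusted p under 0.05. The median difference was 0.51 over the 7 probes and -0.01 over all tested probes. All 7 were higher within both slide columns, as were 24.7% of all tested probes. Both Ugt1a6 probes report the same gene, so the 7 probes stand for 6 genes. The genes were chosen with earlier results of these arrays known, and these counts are therefore a description.

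**Figure D1:**
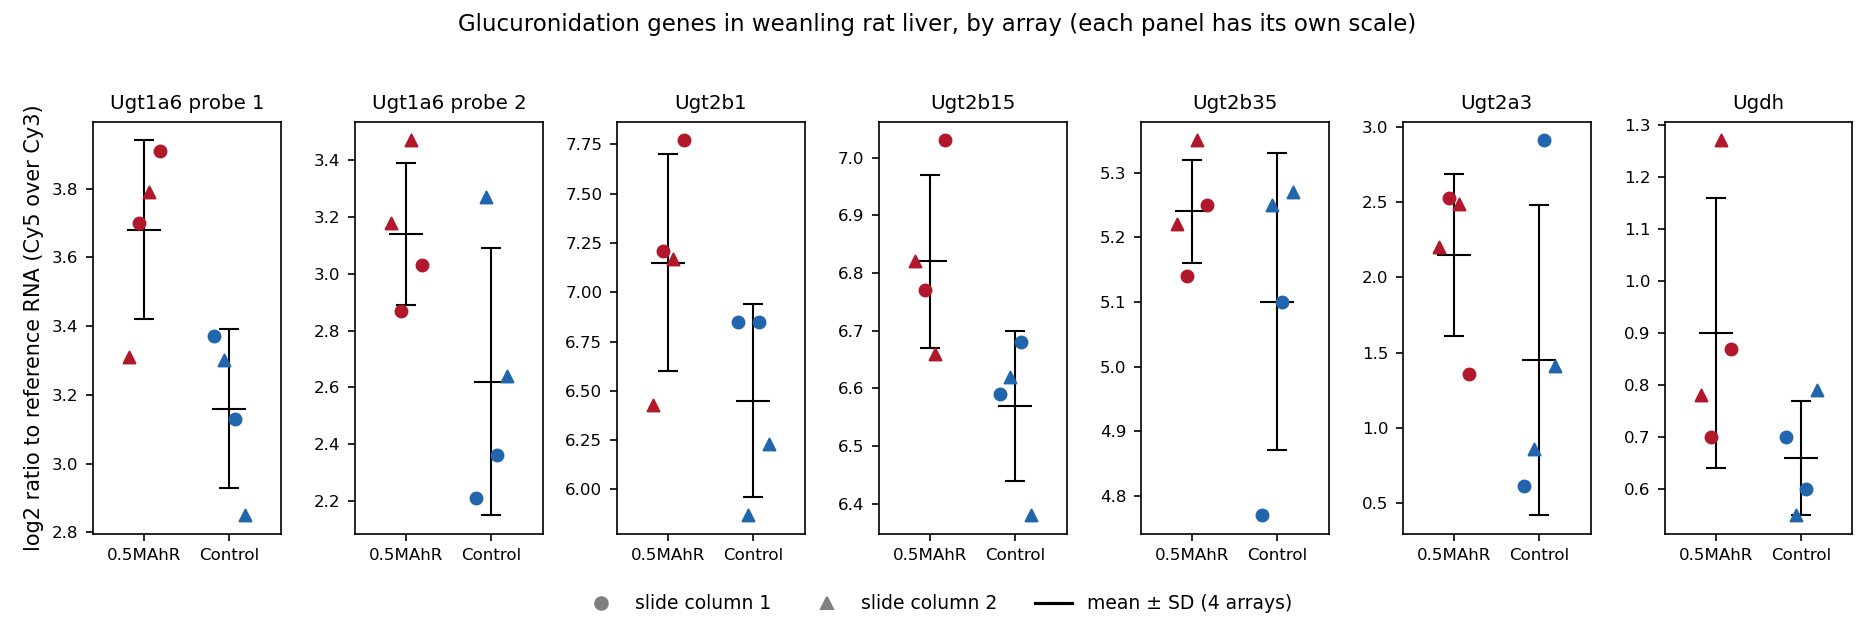
Log2 ratio of liver RNA to the common reference RNA (vertical axis, a separate scale in each panel) for the 7 tested probes, with 0.5MAhR arrays on the left in red and Control arrays on the right in blue. Circles are slide column 1, triangles slide column 2, and black bars the mean and SD of 4 arrays. In each panel the 0.5MAhR mean lies above the Control mean and the groups overlap.

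Ugt1a6, which conjugates small planar phenols, was represented by 2 probes, both filed under the same Ugt1a6 accession. All 8 protein-coding Ugt1a genes of the RefSeq table end at the same base on chromosome 9, as transcripts with shared last exons do. The accession does not tell in which exon a probe lies and probe sequences were not used here, so either probe may also have read transcripts of Ugt1a1, Ugt1a7c or further Ugt1a genes. The values below are therefore those of Ugt1a6 or of the Ugt1a transcripts together.

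The first of the Ugt1a6 probes (probe 1) had log2 ratios of 3.31, 3.70, 3.79 and 3.91 on 0.5MAhR replicates 1 to 4, against 3.37, 3.30, 3.13 and 2.85 on Control replicates 5 to 8. Of the 0.5MAhR arrays 3 lay above every Control array, and replicate 1 lay among them. The means were 3.68 ± 0.26 in 0.5MAhR and 3.16 ± 0.23 in Control livers (SD, n = 4 each). The difference was 0.51 (SE 0.13, 95% interval 0.22 to 0.81), or 1.43-fold, with an adjusted p of 0.397 in limma. It was 0.55 in slide column 1 and 0.48 in slide column 2, and within each column both 0.5MAhR arrays lay above both Control arrays. It was 0.58 without the 2 arrays that carried pancreatic transcripts.

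The second Ugt1a6 probe had log2 ratios of 3.18, 2.87, 3.47 and 3.03 on 0.5MAhR replicates 1 to 4, against 2.21, 3.27, 2.36 and 2.64 on Control replicates 5 to 8. The Control array that overlapped was replicate 6, which was higher than 3 of the 0.5MAhR arrays. The means were 3.14 ± 0.25 in 0.5MAhR and 2.62 ± 0.47 in Control livers (SD, n = 4 each), a difference of 0.52 (SE 0.14, 95% interval 0.20 to 0.83, adjusted p = 0.429 in limma). Slide column 1 gave 0.67 and column 2 gave 0.36. Without the arrays that carried pancreatic transcripts it was 0.55. The 2 probes thus gave nearly equal differences. They departed from each other in the effect of the slide. Probe 2 was higher in column 2 by 0.52 (adjusted p = 0.0108 in limma), whereas probe 1 was lower there, at -0.22 (adjusted p = 0.193). With the mean of each slide column subtracted, the 2 probes correlated with r = 0.921 over the 8 arrays, against 0.479 before, a description of arrays that share reference, slide and group difference.

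The promoter windows of the 3 listed Ugt1a genes are shown because each first exon of the locus has its own promoter, while the Ugt1a6 probes may have read several of their transcripts together. Each window runs from 250 bases before to 50 bases after the annotated start (RefSeq, GRCr8, plus strand), 5′ to 3′. Capitals mark the core of the AhR binding element, GCGTG, searched on both strands, which reads CACGC when it lies on the minus strand. The windows lie at chr9:96194768-96195067 for Ugt1a6, chr9:96187132-96187431 for Ugt1a7c and chr9:96248893-96249192 for Ugt1a1.
Ugt1a6: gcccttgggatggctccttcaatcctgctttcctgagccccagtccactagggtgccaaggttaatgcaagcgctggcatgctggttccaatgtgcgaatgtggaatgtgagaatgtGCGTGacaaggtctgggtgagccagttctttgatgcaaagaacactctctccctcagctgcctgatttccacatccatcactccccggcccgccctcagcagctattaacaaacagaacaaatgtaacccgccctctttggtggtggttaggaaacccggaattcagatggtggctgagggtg
Ugt1a7c: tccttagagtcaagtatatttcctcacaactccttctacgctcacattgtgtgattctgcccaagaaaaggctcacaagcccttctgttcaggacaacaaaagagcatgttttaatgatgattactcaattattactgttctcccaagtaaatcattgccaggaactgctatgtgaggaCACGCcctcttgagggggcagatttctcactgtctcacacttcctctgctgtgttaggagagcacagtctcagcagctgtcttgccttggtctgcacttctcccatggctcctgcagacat
Ugt1a1: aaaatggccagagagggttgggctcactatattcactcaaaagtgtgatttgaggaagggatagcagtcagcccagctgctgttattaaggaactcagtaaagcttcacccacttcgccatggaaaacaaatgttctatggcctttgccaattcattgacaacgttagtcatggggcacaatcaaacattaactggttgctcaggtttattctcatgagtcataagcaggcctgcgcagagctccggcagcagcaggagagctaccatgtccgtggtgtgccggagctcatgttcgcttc

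Ugt1a6 held 1 such core, beginning 133 bases before the annotated start, and Ugt1a7c held 1 on the minus strand, beginning 71 bases before it. The Ugt1a1 window held none. The core is short and common: it was found in 29.7% of 33469 promoter windows of the same length, and in 3 of the 9 windows of the listed genes. The letters GTTAAT are part of the binding site of the hepatocyte factor HNF1. They were found 2 times in the Ugt1a6 window and 1 time each in the Ugt1a1 and Ugt2a3 windows. Of the 9 windows of the listed genes 3 thus held them, where 7.45% of all windows did on either strand. A match describes letters alone, and binding was not tested.

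Ugt2b1, which conjugates testosterone and morphine in the rat, differed by as much as any listed gene. Its log2 ratios were 6.43, 7.21, 7.17 and 7.77 on 0.5MAhR replicates 1 to 4, against 6.85, 5.87, 6.85 and 6.23 on Control replicates 5 to 8. The overlap came from 0.5MAhR replicate 1, which lay below 2 of the Control arrays, both of them in the other slide column. The means were 7.15 ± 0.55 in 0.5MAhR and 6.45 ± 0.49 in Control livers (SD, n = 4 each). The difference was 0.70 (SE 0.17, 95% interval 0.31 to 1.09), or 1.62-fold, with an adjusted p of 0.393 in limma.

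Slide column mattered at this probe. Arrays of column 2 differed from those of column 1 by -0.75 (adjusted p = 0.00495 in limma), close in size to the difference between the groups. Within column 1 the 0.5MAhR arrays read 7.21 and 7.77 and the Control arrays 6.85 and 6.85, a difference of 0.65. Within column 2 the values were 6.43 and 7.17 on 0.5MAhR arrays and 5.87 and 6.23 on Control arrays, a difference of 0.75. Both 0.5MAhR arrays thus lay above both Control arrays in each column. The same held for Ugt1a6 probe 1 and Ugt2b15, that is for 3 of the 7 tested probes, and for 3.30% of all tested probes. Without the 2 arrays that carried pancreatic transcripts the Ugt2b1 difference was 0.75. In the Cy5 channel alone it was 0.76 (adjusted p = 0.0862 in limma), the lowest adjusted p that any listed gene reached under any setting tried.

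The Ugt2b1 window (chr14:21378632-21378931, RefSeq, GRCr8, plus strand) is shown as the promoter of the gene known to answer phenobarbital-type compounds, with any AhR core in capitals.
Ugt2b1: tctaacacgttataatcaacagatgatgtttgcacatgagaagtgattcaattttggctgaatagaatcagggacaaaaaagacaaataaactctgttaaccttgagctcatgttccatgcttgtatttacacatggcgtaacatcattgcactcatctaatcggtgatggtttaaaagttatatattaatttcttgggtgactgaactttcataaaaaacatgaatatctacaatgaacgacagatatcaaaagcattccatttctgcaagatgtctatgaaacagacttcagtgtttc

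It held no AhR core. The letters AGTTCA, an element that CAR and PXR recognise in pairs, were found 1 time on the minus strand, beginning 47 bases before the annotated start, where 14.5% of all windows held them on either strand. Of the 9 windows of the listed genes 1 thus held these letters, a share no higher than that of all windows. Binding was not tested.

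Ugt2b15, the gene listed as Ugt2b17, belongs to the rat enzymes that conjugate 17-hydroxysteroids such as testosterone. Its log2 ratios were 6.82, 6.77, 6.66 and 7.03 on 0.5MAhR replicates 1 to 4, against 6.59, 6.62, 6.68 and 6.38 on Control replicates 5 to 8. Only 0.5MAhR replicate 3 lay below a Control array. The means were 6.82 ± 0.15 in 0.5MAhR and 6.57 ± 0.13 in Control livers (SD, n = 4 each), and the difference was 0.25 (SE 0.09, 95% interval 0.06 to 0.45, adjusted p = 0.631 in limma). It was 0.26 in slide column 1 and 0.24 in column 2. Without the 2 arrays that carried pancreatic transcripts it was 0.15 (unadjusted p = 0.176 in limma).

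Ugt2b35 had log2 ratios of 5.22, 5.14, 5.35 and 5.25 on 0.5MAhR replicates 1 to 4, against 4.77, 5.25, 5.10 and 5.27 on Control replicates 5 to 8. The 0.5MAhR arrays lay close together, 2 of the Control arrays (replicates 6 and 8) lay among them, and Control replicate 5 was the lowest of all. The means were 5.24 ± 0.08 in 0.5MAhR and 5.10 ± 0.23 in Control livers (SD, n = 4 each), a difference of 0.14 (SE 0.09, 95% interval -0.07 to 0.35, adjusted p = 0.877 in limma). It was 0.05 without Control replicate 5. The difference also moved with the channel: it was 0.34 in Cy5 alone (adjusted p = 0.148 in limma), where the Cy3 signal of the reference RNA at this probe was itself higher by 0.19 on 0.5MAhR arrays (adjusted p = 0.999). The scanner software's own ratio gave 0.01.

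The 2 probes of Ugt2b, a further UGT2B gene, were not well above background in Cy5 or Cy3 on any of the 8 arrays. Their net Cy5 signals were between -4.5 and 6.0 on 0.5MAhR arrays and between -3.8 and 4.5 on Control arrays. They were not tested and give no fold.

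Ugt2a3, whose human counterpart conjugates bile acids, was dim. Its Cy5 signal stood well above background on all 4 0.5MAhR arrays and on 3 of 4 Control arrays, replicate 5 being the exception. In Cy3 it did so on 0 of 8 arrays, so that its log ratio is taken over a reference at the floor. Net Cy5 signals were 97.0, 130, 149 and 59.0 on 0.5MAhR replicates 1 to 4, against 19.0, 32.5, 176.5 and 62.5 on Control replicates 5 to 8. The highest value of all was thus that of Control replicate 7. The log2 ratio averaged 2.15 ± 0.54 in 0.5MAhR and 1.45 ± 1.03 in Control livers (SD, n = 4 each), a difference of 0.70 with a wide interval (SE 0.47, 95% interval -0.35 to 1.75, adjusted p = 0.882 in limma). Slide column 1 gave 0.19 and column 2 gave 1.21. Single arrays moved the value: leaving out Control replicate 7 gave 1.26, Control replicate 5 gave 0.34, and 0.5MAhR replicate 4 gave 1.04. It was 1.07 without the 2 arrays that carried pancreatic transcripts.

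Ugdh, which oxidises UDP-glucose to the UDP-glucuronic acid that every UGT uses, had log2 ratios of 0.78, 0.70, 1.27 and 0.87 on 0.5MAhR replicates 1 to 4, against 0.70, 0.55, 0.60 and 0.79 on Control replicates 5 to 8. Replicates 3 and 4 of 0.5MAhR lay above all Control arrays, replicate 3 by the wider margin, and replicates 1 and 2 lay among them. The means were 0.90 ± 0.26 in 0.5MAhR and 0.66 ± 0.11 in Control livers (SD, n = 4 each). The difference was 0.24 (SE 0.12, 95% interval -0.02 to 0.51, adjusted p = 0.828 in limma), with 0.13 in slide column 1 and 0.36 in column 2. It was 0.12 without 0.5MAhR replicate 3 and 0.32 without the arrays that carried pancreatic transcripts. With slide column means subtracted, Ugdh correlated with Ugt2b1 at r = 0.917 over the 8 arrays, against 0.453 before, again as a description. This was the highest r between different genes among the tested probes. With the remaining tested probes the r of Ugdh, taken in the same way, lay between 0.265 and 0.658.

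The Ugdh window (chr14:43202268-43202567, RefSeq, GRCr8, plus strand) is shown because it held the remaining AhR core, in capitals.
Ugdh: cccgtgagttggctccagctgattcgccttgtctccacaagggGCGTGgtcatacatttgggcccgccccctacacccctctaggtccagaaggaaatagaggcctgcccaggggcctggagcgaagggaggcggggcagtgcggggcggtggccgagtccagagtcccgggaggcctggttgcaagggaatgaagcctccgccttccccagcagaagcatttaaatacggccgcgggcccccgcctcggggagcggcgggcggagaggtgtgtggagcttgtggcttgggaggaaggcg

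The core began 207 bases before the annotated start. The letters TGACNNNGC, the element bound by NRF2, were found on the minus strand from the same base, overlapping the core, and 12.1% of all windows held them.

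**Figure D2:**
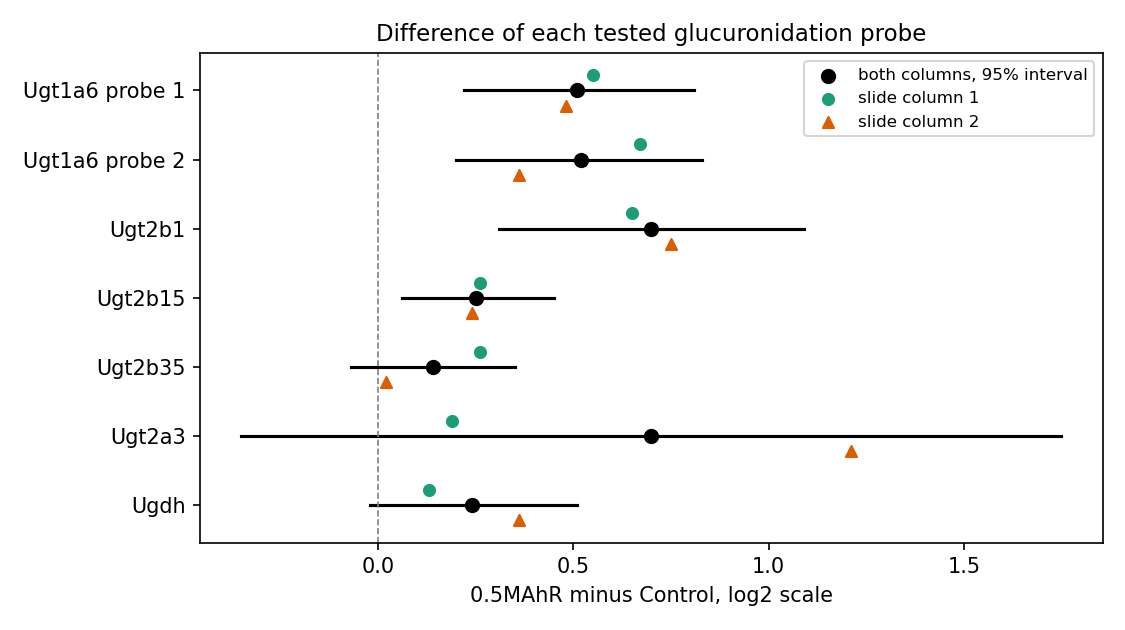
Difference of 0.5MAhR minus Control on the log2 scale (horizontal axis) for the 7 tested probes. Black points with lines are the fit over 8 arrays with its 95% interval, green circles slide column 1 alone and orange triangles slide column 2 alone. All points lie right of 0. The intervals of Ugt1a6, Ugt2b1 and Ugt2b15 leave out 0, those of Ugt2b35, Ugt2a3 and Ugdh do not, and the intervals are not adjusted for the number of probes tested. They hold with slide column fitted.

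The intervals of Ugt1a6 probe 2, Ugt2b1 and Ugt2b15 leave out 0 through the slide column term. Without it, unadjusted p in limma was 0.0118 and 0.0547 for the Ugt1a6 probes, 0.0527 for Ugt2b1 and 0.0547 for Ugt2b15. With slide row as the block it was 0.0522 and 0.119 for the Ugt1a6 probes, 0.105 for Ugt2b1 and 0.160 for Ugt2b15.

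The reference channel was compared between the groups in the same way. By the labels every array carried the same reference RNA, and its Cy3 signal differed by -0.05 to 0.19 on the log2 scale at the 7 tested probes, each with an adjusted p of 0.999 in limma. At 2 other probes, 0.0175% of those tested, the Cy3 signal did differ, those of Cyp1a2 (1.39, adjusted p = 0.00225 in limma) and Cyp2b2 (0.31, adjusted p = 0.0438). In Cy5 alone the differences were 0.49 and 0.51 for the Ugt1a6 probes, 0.34 for Ugt2b15, 0.47 for Ugt2a3 and 0.21 for Ugdh.

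Around the listed genes, the supply of UDP-glucuronic acid was covered by 8 further genes, all tested. Of these 0 passed the threshold in limma. Ugp2, which makes UDP-glucose for Ugdh, differed by 0.21 (adjusted p = 0.712), and Slc35d1, which carries UDP-glucuronic acid into the endoplasmic reticulum, by 0.24 (adjusted p = 0.715). Slc35d1 was well above background on 3 0.5MAhR and 2 Control arrays and hexokinase Hk1, which differed by 0.08, on 4 and 2, so that both entered the test only through the 0.5MAhR arrays. Among 15 further UGT names, 6 had a probe and 2 were tested, Ugt2b37 at 0.31 (adjusted p = 0.904) and Ugt2b10 at 0.04 (adjusted p = 0.988). The Ugt1a9 probe was well above background on 1 0.5MAhR array and no Control array and was not tested.

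Of 6 genes that export or cleave glucuronides, 5 were tested and 0 passed in limma. Abcc2, which exports glucuronides into bile, differed by 0.42 (SE 0.07, adjusted p = 0.187), and all its 0.5MAhR arrays lay above all Control arrays, as did those of 0.798% of all tested probes. Abcc3, the exporter of the sinusoidal side, was well above background on 2 0.5MAhR arrays and no Control array and was not tested. The lysosomal and microsomal glucuronidase Gusb differed by -0.02. Of 9 genes that use glucuronic acid further, such as in vitamin C synthesis, 8 were tested, 0 passed in limma and the median was 0.02, with Gulo at 0.13 and Rgn at 0.14.

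Targets of the receptors that are known to act on UGT genes were looked at beside them. Among AhR targets Cyp1a1 rose by 4.04 (SE 0.31, adjusted p = 0.00314 in limma, 0.00996 without slide column), and Nqo1 differed by 0.90 (adjusted p = 0.187). The Cyp1a1 signal was low in Control livers, with a mean net Cy5 of 39.4 against 865 in 0.5MAhR livers. It was well above background on 3 of 4 Control arrays. The remaining AhR target tested, Cyp1a2, differed by 0.12 in the log ratio (adjusted p = 0.862), with its Cy3 signal higher by 1.39 on 0.5MAhR arrays. Its mean net Cy5 signal was 14500 in 0.5MAhR and 4700 in Control livers. Among CAR targets Cyp2b2 rose by 2.04 (SE 0.25, adjusted p = 0.0275 in limma), a call that was lost without slide column (adjusted p = 0.939). A second Cyp2b2 probe passed with 1.51 (SE 0.17, adjusted p = 0.0203 in limma), and was also lost without slide column. Cyp2c7 differed by 1.63 at its brightest probe (adjusted p = 0.101) and passed at 2 of its probes, with 1.71 and 1.96 (adjusted p = 0.0304 and 0.0426, lost without slide column at 1.00 and 0.359). Ephx1, the microsomal epoxide hydrolase, differed by 0.98 (adjusted p = 0.140). The PXR target Cyp3a23-3a1 differed by 0.08. Of 3 NRF2 targets tested 0 passed in limma. Srxn1 differed by 0.40 (adjusted p = 0.269), Gclc by 0.23 (adjusted p = 0.814) and Txnrd1 by 0.09 (adjusted p = 0.918). Among 11 regulators 9 were tested and 0 passed in limma, with Nfe2l2, which encodes NRF2, at 0.30 (adjusted p = 0.601). Ahr differed by 0.09 (adjusted p = 0.946). It was well above background on 3 0.5MAhR arrays and 1 Control array, and so entered the test only through the 0.5MAhR arrays. Arnt was well above background on no array and was not tested. The receptor genes Nr1i3 (CAR) and Nr1i2 (PXR) differed by -0.04 and -0.11. With slide row as the block, 0 probes of the whole array passed. These sizes are differences within single probes and were not tested against those of the UGT probes.

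**Figure D3:**
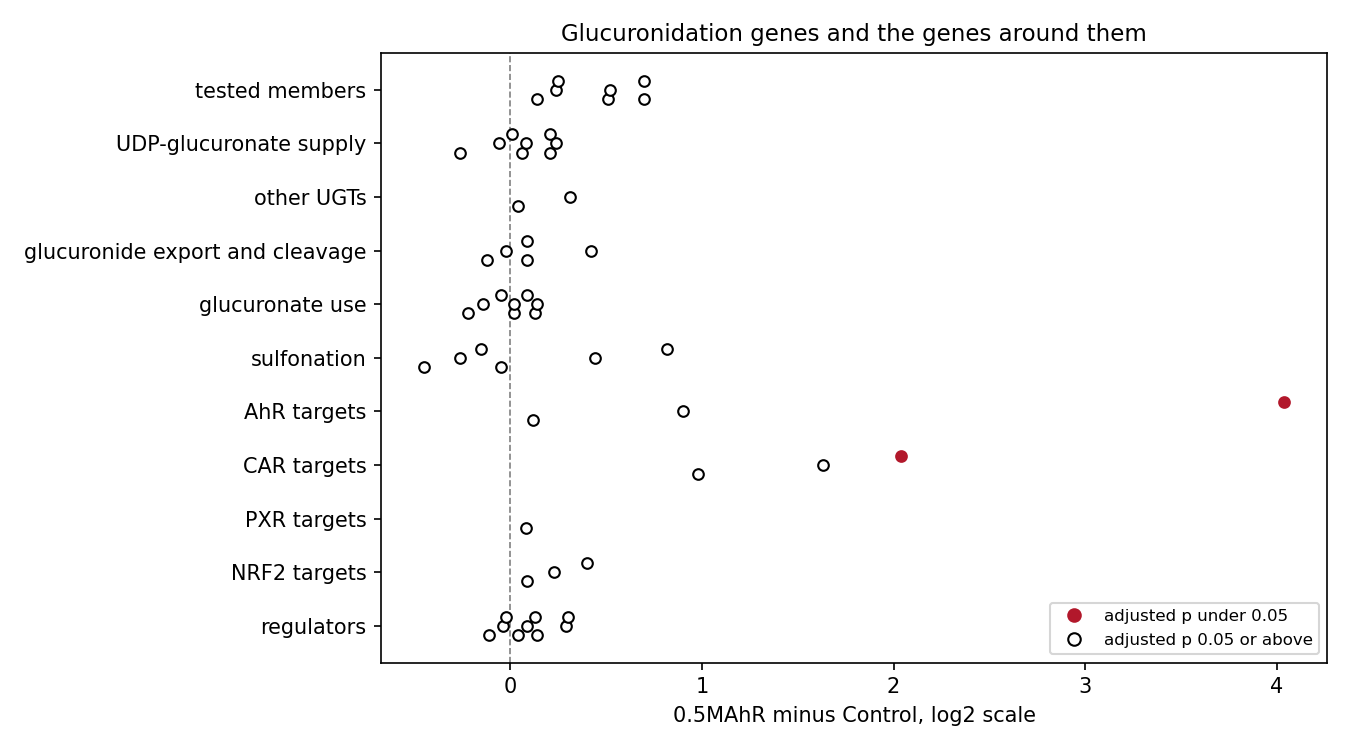
Difference of 0.5MAhR minus Control on the log2 scale (horizontal axis) for the 7 tested probes of the listed genes (top line) and for the tested genes of each surrounding list, 1 point per gene at its brightest tested probe, spread vertically for legibility. Red points passed an adjusted p of 0.05 and open points did not. The passing points are Cyp1a1 at 4.04 and Cyp2b2 at 2.04, and the listed genes lie between 0.14 and 0.70.

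The genes whose log ratios ran most alike with the listed genes were sought among 6932 other named genes, after slide column means were subtracted and over 8 arrays. For Ugt1a6 (probe 1) these were Ccl5 with r = 0.985, Rapgef2 with r = 0.972 and Fcgr1a with r = 0.963. For Ugt2b1 they were Cxcl9 with r = 0.976, Txn1 with r = 0.968 and Slc11a1 with r = 0.967. For Ugdh they were Usp8 with r = 0.977, Ube2l6 with r = 0.966 and Pgap3 with r = 0.963. The closest gene was Ptrh2 for Ugt2b15 (r = 0.965), Tor1aip2 for Ugt2b35 (r = 0.970) and Wfdc21 for Ugt2a3 (r = 0.965). These are the highest of many correlations over few arrays that share slide and group, and they are given as descriptions.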

How the data were processed

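The members and gene lists were chosen with earlier results of these data known. Per the file headers, Agilent Feature Extraction 11.0.1.1 measured the intensity of each spot. The deposited median foreground and background intensity columns were used, with the software's marks for background and outliers . Deposited alternatives were the software's log10 ratios of Cy5 over Cy3 and the authors' value table of log2 ratios. How that table was made is not given in the sources used. Against loess ratios computed here without background correction, its r was between 0.997 and 0.998 on every array, which settles direction. The slope was between 0.995 and 1.00, which settles scale. The medians of the authors' table lay between -0.0389 and -0.0326, and its centring stays unknown. All arrays had the same dye orientation, so dye bias was not measured.

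With limma 3.58.1 (R 4.3.3), normexp corrected the background (offset 50) and loess normalised each array (weight 0 for control spots). Outlier spots were dropped, and the remaining spots averaged by probe. Of 30367 probes, 18005 had a RefSeq symbol. A probe counted as well above background where over 0.5 of its spots were marked so. The 11407 probes that were so in Cy5 on at least 3 of 4 arrays of a group were tested with lmFit and eBayes, two-sided, with slide column as a term and Benjamini-Hochberg adjustment at 0.05. Alternatives changed the background correction, normalisation, filter, channel, slide term and variance model, or left out arrays. The code of the fit was checked on data simulated from its own model with independent noise, which is no test of the design. Every probe of the listed genes is named, and surrounding lists give genes past the threshold and up to 4 more by unadjusted p, with a few others chosen after their values were seen. The array count limits the precision.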

Additional observations from a re-analysis of the deposited data

How the results depend on the processing

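Under 23 alternatives, 1 of them (leaving out both arrays with pancreatic transcripts) chosen after the data were examined, 0 of the 7 tested probes of the listed genes passed the threshold, and all 159 recomputed differences kept their sign. Without slide column in the fit, limma gave an adjusted p of 1.00 at each. Differences ranged from 0.43 to 0.62 and from 0.36 to 0.67 for the Ugt1a6 probes, 0.49 to 0.84 for Ugt2b1, 0.15 to 0.34 for Ugt2b15, 0.01 to 0.34 for Ugt2b35, 0.19 to 1.26 for Ugt2a3 and 0.12 to 0.36 for Ugdh. The number of all tested probes past the threshold, 9 with slide column fitted, was 1 without it, 2 in slide column 1 alone, 1 in column 2 alone, 4 with an offset of 16, 17 in Cy5 alone, 5 with the brightest probe of each gene, 5 with a trended robust variance and 2 without both arrays with pancreatic transcripts. It was 0 with slide row as the block (86 at an unadjusted p under 0.05 in limma) and 0 with the scanner software's ratios (914). Without single arrays it lay between 1 and 16, at 2, 16, 1 and 1 without 0.5MAhR replicate 1, 2, 3 and 4, and at 2, 2, 15 and 2 without Control replicate 5, 6, 7 and 8. In the reference channel 2 probes passed, 1 without slide column, 4 without the filter on dim probes, and 1 to 7 without single arrays. The causes were not tested. No paired analysis was possible because the groups share no replicate number, other than by position: each slide row held 1 array of each group, and the fit with slide row as the block used those 4 pairs. Signal over background limits Ugt2a3 and Ugt2b.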

Other observations

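Sulfonation, the other main conjugation of phenols and steroids in liver, was measured at 6 of 10 listed genes, and 0 passed the threshold in limma. At an unadjusted p under 0.05, 1 was higher and 2 were lower, where 3.52% of all tested probes were higher and 2.86% lower. The median difference was -0.10, against -0.01 over all tested probes. Sult1b1, which sulfonates thyroid hormones and simple phenols, was higher on every 0.5MAhR array than on every Control array, as were 0.798% of all tested probes, with a difference of 0.82 (SE 0.18, adjusted p = 0.299), 0.68 in slide column 1 and 0.97 in column 2. Sult1c3 differed by -0.45 (adjusted p = 0.728) and Sult2a6 by -0.26 (adjusted p = 0.601), and Sult2a1 by 0.44, with 0.00 in slide column 1 and 0.89 in column 2.

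Prss1, which encodes trypsinogen of the exocrine pancreas, had net Cy5 signals of 563, 0.8, 5.2 and 1720.8 on 0.5MAhR replicates 1 to 4, against -1.0, 3.0, 1.0 and 2.8 on Control replicates 5 to 8.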
